A study of Mus musculus with 15 samples.

Results

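Interferon response genes were followed in transplanted blood stem and progenitor cells that carried a HOXB4 vector or a GFP vector. The genes were a list of 42 by symbol, of which 37 had a probe set with that single gene symbol among the 17097 genes measured. Where a gene had several probe sets, the brightest by its mean over the 15 arrays was used. The list held sensors of foreign nucleic acid (4 of 4 measured), transcription factors (4 of 4), the feedback regulator Usp18, antiviral effectors (19 of 23), interferon-gamma inducible GTPases (6 of 6), proteasome and peptide transport genes of antigen processing (2 of 3) and the chemokine Cxcl10. Isg15, Oas1a, Bst2, Ifi44 and Tap1 had no probe set of that single symbol and were not analysed here.

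Type I interferons signal through a receptor pair to a complex that holds STAT2 and IRF9 and binds the interferon-stimulated response element (ISRE) and turns on antiviral effectors. Interferon-gamma signals through its own receptor to factors that bind the gamma-activated site (GAS) and, with IRF1, turn on GTPases that attack the vacuoles of intracellular microbes. In blood stem cells a low basal activity of these genes is known, type I interferon and interferon-gamma drive stem cells into cycle, and USP18 holds the type I signal down at the receptor.

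Marrow of female C57Bl/6 donors treated with 5-fluorouracil was transduced with an MSCV retroviral vector for HOXB4 and yellow fluorescent protein, or with an MSCV vector for GFP alone, and was given to lethally irradiated C57Bl/6 mice. Fluorescent LSK cells (lineage-negative, Sca-1+ and Kit+, the fraction with stem cells and early progenitors) were sorted from marrow and were not cultured. Each of 5 groups had 3 arrays, namely HOXB4 cells taken 6, 12 and 20 weeks after the transplant, and GFP cells taken at 20 and 12 weeks. The titles give 20 weeks for the last time and the series text gives 24, and the titles were followed. The HOXB4 and GFP cells thus also differed in the fluorescent protein by which they were sorted, and GFP cells at 6 weeks were not analysed here. Whether the 3 arrays of each group stand for separate mice or for pools is not given in the labels.

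Replicate arrays correlated between 0.969 and 0.995 and arrays of different groups between 0.952 and 0.988. Kit, which defines the sort, read 7.89 to 8.79 (log2) on the 15 arrays, and Ly6a, the gene of Sca-1, had no probe set of that single symbol. For Gapdh, the control probe sets at the 3' end exceeded those at the 5' end by 3.76 (log2) on HOXB4 6-week replicate 1 and by 0.81 to 2.02 on the others. The spiked-in Dap control was brightest on HOXB4 20-week replicate 3 (12.70) and GFP 20-week replicate 3 (12.92). The HOXB4 array had the lowest value of its group for 29 of the 37 interferon response genes, a position it held for 36.8% of all genes. GFP 12-week replicate 3 was lowest of its group for 26 of the 37, against 33.6% of all genes.

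Brightness limits what some of these genes can show. The brightest of 23 non-specific control probe sets read 5.19 (log2) over all arrays. Oasl1, Mx1, Mx2 and Cxcl10 never exceeded that value, and Dhx58, Stat2, Usp18, Ifit1, Iigp1 and Irgm1 were at or below it on some arrays. The other 27 were above it on every array. Mx1, an antiviral GTPase, is known to be defective in most inbred laboratory strains, C57BL/6 included.

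Promoters of 3 pairs of these genes are printed here because the ISRE and the GAS are the elements of the 2 signalling routes. A window of 250 bases before the start of the gene was present for 26 of the 37 genes (RefSeq, GRCm38.p6). The ISRE core, searched as GAAA, any 2 bases and GAAA, or TTTC, any 2 bases and TTTC for the other strand, occurred in 12 of the 26 windows (46.2%), against 3.46% of 27025 genes. The GAS motif, searched as TTC, any 3 bases and GAA, which reads the same on both strands, occurred in 5 of 26 (19.2%), against 8.13% of all genes. All 5 GTPases with a window held the ISRE core and 2 of them, Igtp and Irgm2, also the GAS motif, while 5 of 12 effectors held the ISRE core and 1, Ifit2, the GAS motif. A match describes the letters and was not tested as a binding site. In the sequences below, 5′ to 3′ on the gene's own strand, capitals mark ISRE cores and GAS motifs. The first pair, from chr3:142620413-142620662 and chr3:142559794-142560043, both on the plus strand, belongs to 2 GTPases of 1 gene cluster that moved in opposite directions at 20 weeks.
Gbp2: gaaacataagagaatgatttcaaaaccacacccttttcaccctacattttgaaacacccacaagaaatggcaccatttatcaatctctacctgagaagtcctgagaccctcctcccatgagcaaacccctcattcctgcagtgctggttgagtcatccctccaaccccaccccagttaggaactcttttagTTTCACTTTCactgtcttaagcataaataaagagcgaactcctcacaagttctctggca
Gbp3: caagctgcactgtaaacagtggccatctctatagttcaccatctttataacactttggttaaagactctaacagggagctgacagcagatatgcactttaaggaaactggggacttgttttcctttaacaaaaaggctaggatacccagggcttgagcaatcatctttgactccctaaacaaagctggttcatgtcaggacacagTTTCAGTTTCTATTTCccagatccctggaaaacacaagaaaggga
The core of Gbp2 began 59 bases before its start, and Gbp3 had 2 overlapping cores that began 45 and 39 bases before its start.

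The second pair belongs to effectors, Ifit1 at chr19:34640639-34640888 and Ifit3 at chr19:34583279-34583528, both on the plus strand and each with 2 separate ISRE cores and no GAS motif.
Ifit1: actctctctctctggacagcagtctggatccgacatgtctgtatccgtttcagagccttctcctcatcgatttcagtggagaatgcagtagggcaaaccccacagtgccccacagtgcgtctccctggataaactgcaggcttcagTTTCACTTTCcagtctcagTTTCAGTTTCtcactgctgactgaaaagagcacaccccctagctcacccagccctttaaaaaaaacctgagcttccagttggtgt
Ifit3: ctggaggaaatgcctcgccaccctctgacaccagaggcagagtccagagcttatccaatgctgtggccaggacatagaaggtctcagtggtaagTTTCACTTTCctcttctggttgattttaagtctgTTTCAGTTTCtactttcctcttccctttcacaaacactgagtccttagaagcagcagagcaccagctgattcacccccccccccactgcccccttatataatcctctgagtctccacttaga
The cores of Ifit1 began 104 and 85 bases before its start and those of Ifit3 began 156 and 122 bases before its start.

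The third pair holds both motifs and belongs to the GTPases Igtp at chr11:58199306-58199555 and Irgm2 at chr11:58214727-58214976, both on the plus strand.
Igtp: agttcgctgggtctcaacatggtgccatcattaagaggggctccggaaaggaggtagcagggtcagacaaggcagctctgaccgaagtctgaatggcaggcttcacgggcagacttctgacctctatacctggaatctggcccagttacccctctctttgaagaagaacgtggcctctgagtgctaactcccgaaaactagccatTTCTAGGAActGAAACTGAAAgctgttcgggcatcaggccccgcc
Irgm2: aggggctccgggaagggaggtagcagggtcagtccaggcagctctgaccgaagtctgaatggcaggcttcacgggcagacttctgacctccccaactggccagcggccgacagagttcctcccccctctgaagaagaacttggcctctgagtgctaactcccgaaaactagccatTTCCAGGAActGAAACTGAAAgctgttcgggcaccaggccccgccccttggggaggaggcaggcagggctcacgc
In both, 2 bases lay between the end of the GAS motif and the ISRE core, and the longest run of letters that the 2 windows shared was 55 bases. The GAS motif began 45 bases before the start in Igtp and 75 in Irgm2, and the ISRE core 34 and 64.

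HOXB4 against GFP cells at 20 weeks gave the most changes among the interferon response genes, with 6 of 37 higher and 2 lower at an adjusted p under 0.05 in limma. Iigp1, Rtp4, Gbp2, Usp18, Ifit1 and Ddx58 were higher and Gbp3 and Ifitm3 were lower in HOXB4 cells. Calls covered 21.6% of the 37 genes, against 8.95% of all genes, of which 3.77% were higher and 5.18% lower. The difference was positive for 30 of the 37 and negative for 7, with a median of 0.35 (log2), against 0.02 over all genes. Over all 17097 genes it was positive for 9238 and negative for 7859. The arrays of the 2 groups did not overlap for 9 genes that were higher and 4 that were lower, against 12.9% and 12.5% of all genes. Since these are bulk samples, fewer cells of a type and less RNA per cell cannot be told apart in any of these values.

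**Figure D1:**
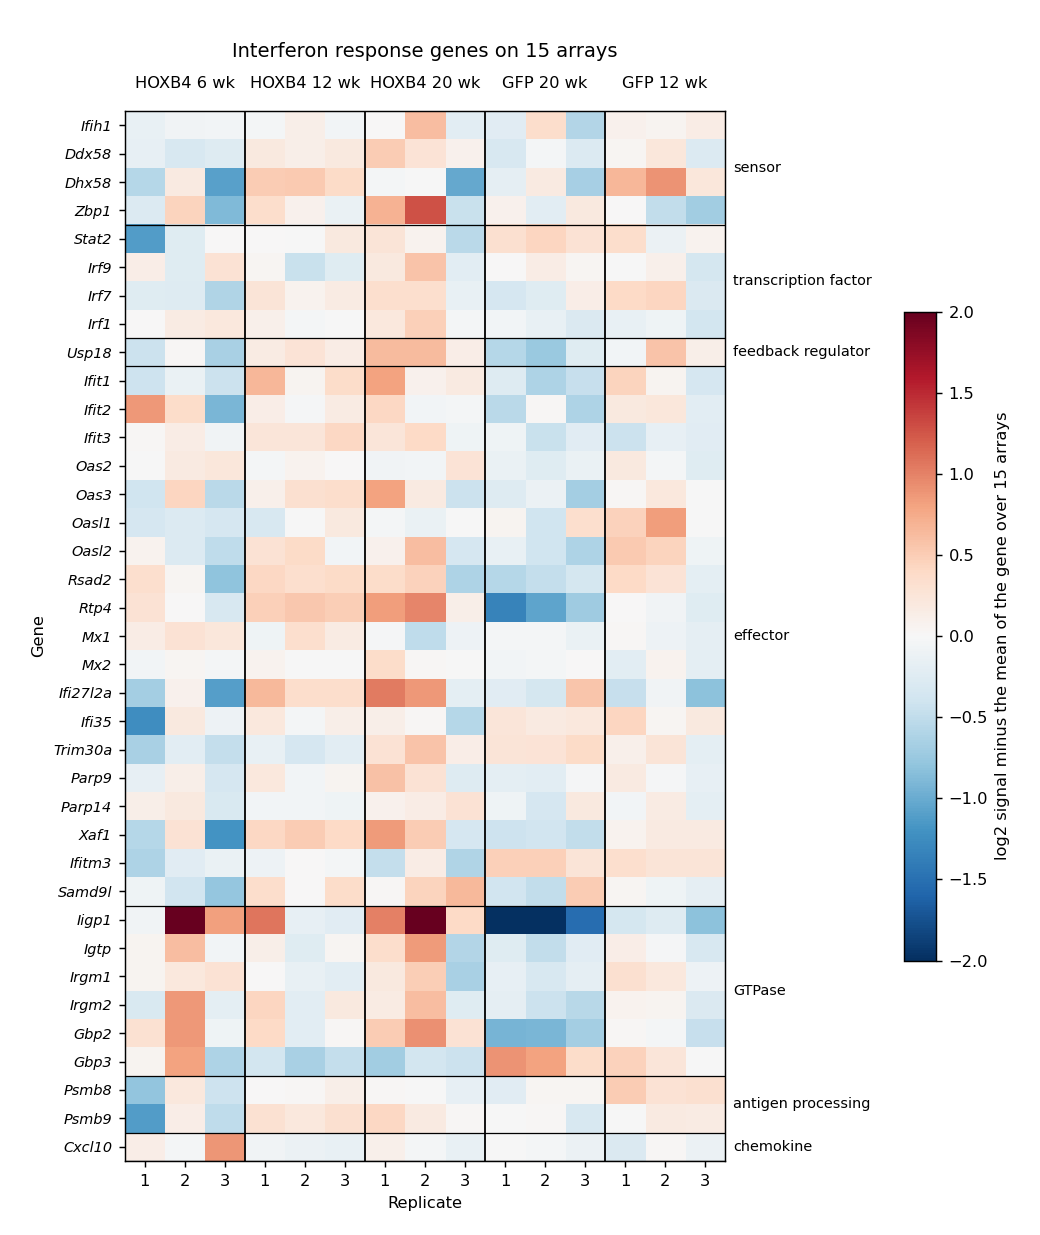
Log2 signal of the 37 measured interferon response genes (rows, grouped by role) on each of the 15 arrays (columns), as the difference from the gene's mean over the 15 arrays; colours stop at -2 and 2, which Iigp1 exceeds. Rtp4, Iigp1 and Gbp2 are blue, below their means, in all 3 GFP 20-week columns, where Gbp3 and Ifitm3 are red, above theirs.

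Among the sensors, Ddx58, the gene of the RNA sensor RIG-I, read 7.03, 6.79 and 6.60 in HOXB4 cells, against 6.20, 6.48 and 6.25 in GFP cells at 20 weeks. Every HOXB4 array lay above every GFP array. Ddx58 was higher in HOXB4 cells by a log2 difference of 0.49 ± 0.14 (SE, 1.41-fold; limma adjusted p = 0.0412). This call was lost in 14 of 24 alternatives, with an adjusted p of up to 0.145, and of its other probe sets 1 gave 0.48 ± 0.17 (adjusted p = 0.114) and 1 gave -0.04 ± 0.14 (adjusted p = 0.901) over all named probe sets. Ifih1, the gene of the RNA sensor MDA5, differed by 0.29 ± 0.21 (adjusted p = 0.483). Zbp1, a sensor of Z-form nucleic acid, differed by 0.48 ± 0.37 (adjusted p = 0.500), with a range of 6.06 to 7.78 across the HOXB4 arrays. Dhx58, the RIG-I relative LGP2, differed by -0.14 ± 0.32 (adjusted p = 0.856). Its other probe sets went the other way, with 0.34 ± 0.23 (adjusted p = 0.437) and 0.60 ± 0.20 (adjusted p = 0.0894) in limma over all named probe sets.

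None of the 4 transcription factors was called by limma at 20 weeks, and 1 of 4 had an unadjusted p under 0.05 (25%, against 22.1% of all genes). That gene was Irf1, an interferon-gamma induced factor, which read 8.35, 8.62 and 8.11 in HOXB4 cells, against 8.08, 8.0 and 7.85 in GFP cells. The groups did not overlap, and the difference of 0.38 ± 0.13 had an adjusted p of 0.0915. Irf7, which amplifies type I interferon production, read 6.42, 6.42 and 5.93 in HOXB4 cells, against 5.75, 5.84 and 6.22 in GFP cells, and the groups overlapped (0.32 ± 0.20, adjusted p = 0.384). Irf9, the DNA-binding member of the type I complex, differed by 0.13 ± 0.20 (adjusted p = 0.768). Stat2, its partner, read 6.41, 6.22 and 5.61 in HOXB4 cells, against 6.46, 6.58 and 6.43 in GFP cells. All 3 HOXB4 values of Stat2 were below the GFP values, with a difference of -0.41 ± 0.25 (adjusted p = 0.371).

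Usp18, the protease that removes ISG15 from proteins and restrains the type I receptor, read 5.72, 5.72 and 5.22 in HOXB4 cells at 20 weeks, against 4.52, 4.35 and 4.85 in GFP cells. The groups did not overlap, although 2 of the GFP arrays read no higher than the brightest non-specific control on the same array. Usp18 was higher in HOXB4 cells by a fitted 0.98 ± 0.20 (limma adjusted p = 0.00685), with group means of 5.55 in HOXB4 and 4.57 in GFP cells. With the 2 dim GFP arrays set to their brightest controls the GFP mean was 4.76. The difference of the means was then 0.80 (1.74-fold), with no account taken of the spread between arrays. Usp18 had 1 probe set.

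Of the 19 antiviral effectors, 2 were higher and 1 lower in HOXB4 cells at 20 weeks (15.8%, against 8.95% of all genes). Their median difference was 0.44 (log2). Rtp4, a receptor chaperone that also restrains flaviviruses, read 8.07, 8.20 and 7.35 in HOXB4 cells, against 5.89, 6.17 and 6.52 in GFP cells. The lowest HOXB4 array stood well above the highest GFP array, and Rtp4 was higher in HOXB4 cells by 1.68 ± 0.21 (3.21-fold; limma adjusted p = 0.000173). Its second probe set gave 0.88 ± 0.24 (adjusted p = 0.0353 over all named probe sets). Ifit1, which binds the ends of viral RNA, read 5.83, 5.11 and 5.20 in HOXB4 cells, against 4.76, 4.40 and 4.56 in GFP cells. These groups did not overlap either, and the fitted difference was 0.81 ± 0.22 (limma adjusted p = 0.0325). Here too 2 of the GFP arrays read no higher than their brightest control. With those set to the control the difference of the means was 0.54 (1.46-fold), again without the spread between arrays. The call of Ifit1 was lost in 6 of 24 alternatives, among them leaving out any 1 of the 3 GFP arrays or HOXB4 replicate 1, with an adjusted p of up to 0.138 over the alternatives.

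Ifitm3, a membrane protein that blocks virus entry and marks many stem cells, went the other way. It read 10.58, 11.20 and 10.45 in HOXB4 cells at 20 weeks, against 11.53, 11.54 and 11.31 in GFP cells. The groups did not overlap, and Ifitm3 was lower in HOXB4 cells by a log2 difference of -0.72 ± 0.17 (1.64-fold; limma adjusted p = 0.0162). Its call was lost in 6 of 24 alternatives, among them leaving out GFP replicate 1 or 2 or HOXB4 replicate 1 or 3, with an adjusted p of up to 0.103 over the alternatives. Its neighbours on chromosome 7, which were no part of the 37, were lower too for Ifitm1 (-1.75 ± 0.39, adjusted p = 0.0103), while Ifitm2 differed by -0.43 ± 0.14 (adjusted p = 0.0694).

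The 16 other effectors were not called at 20 weeks. Among them Ifit3, of the Ifit1 family, differed by 0.44 ± 0.14 (adjusted p = 0.0629), Xaf1, a partner of the apoptosis inhibitor XIAP, by 0.78 ± 0.31 (adjusted p = 0.142), and Oasl2, of the oligoadenylate synthetase family, by 0.51 ± 0.23 (adjusted p = 0.212). Rsad2, the gene of the antiviral enzyme viperin, differed by 0.53 ± 0.29 on the brightest probe set (adjusted p = 0.298), whereas its dimmest probe set gave 0.65 ± 0.15 (adjusted p = 0.0142 over all named probe sets). Oas3, Samd9l, Ifi27l2a and Ifit2 differed by 0.54, 0.50, 0.58 and 0.48 and Parp9, Parp14 and Oas2 by 0.35, 0.25 and 0.22, all short of the threshold. Mx2, Trim30a, Oasl1, Mx1 and Ifi35 had differences of 0.16, 0.02, -0.06, -0.15 and -0.35.

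**Figure D2:**
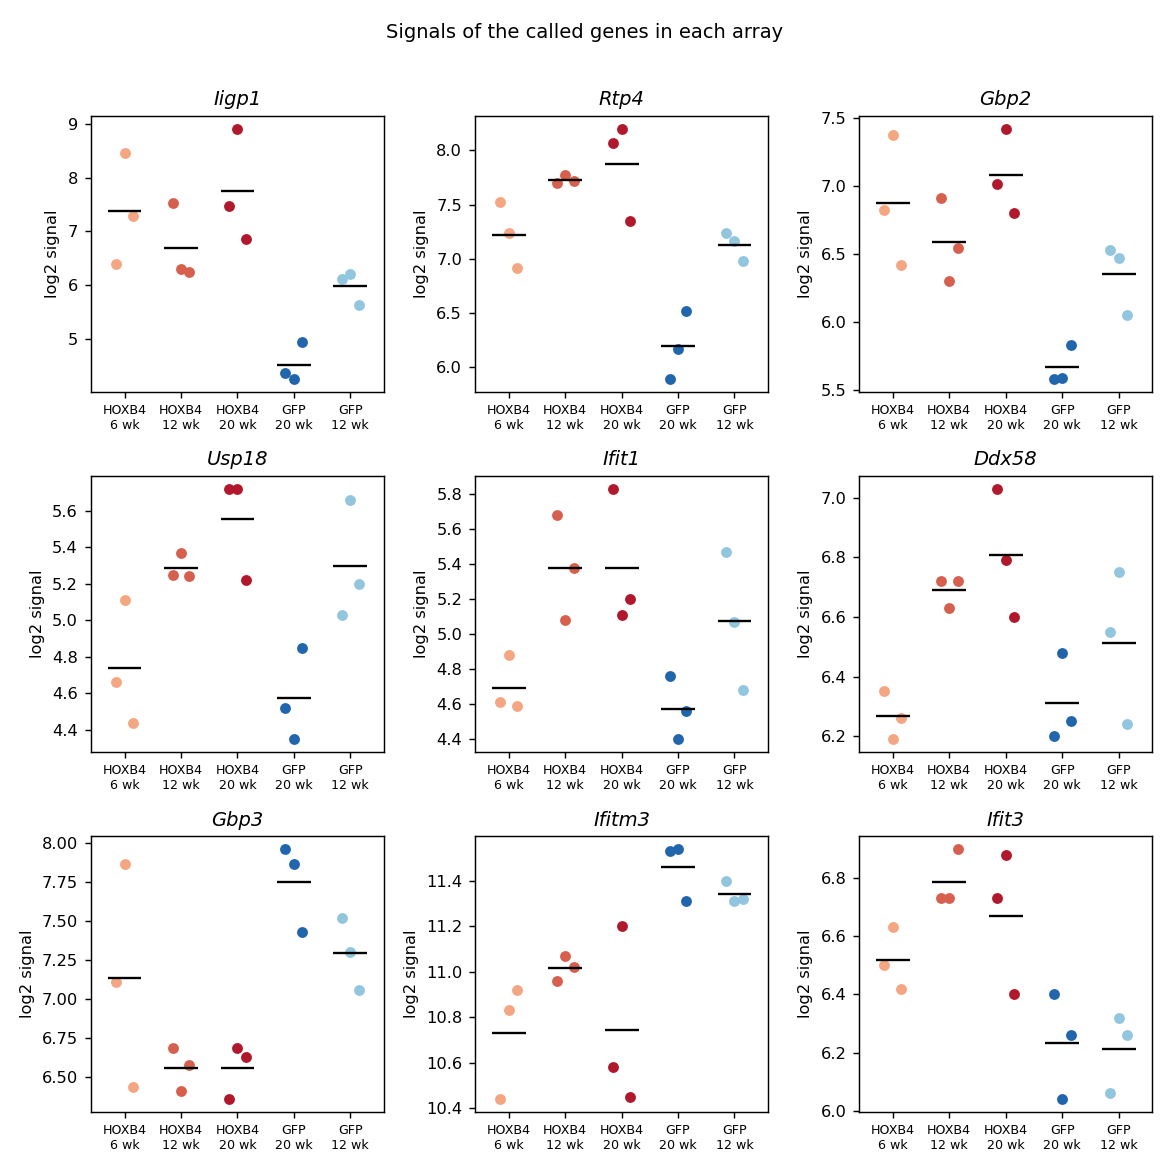
Log2 signal (vertical axes, each with its own range) of the 9 interferon response genes called between HOXB4 and GFP cells at 12 or 20 weeks, with 1 point per array and a line at the group mean of 3 arrays. Iigp1, Rtp4 and Gbp2 are lowest in the 3 GFP 20-week arrays, and Gbp3 and Ifitm3 are higher in those arrays than in HOXB4 cells at 20 weeks.

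Of the 6 interferon-gamma inducible GTPases, 2 were higher and 1 lower in HOXB4 cells at 20 weeks (50%, against 8.95% of all genes). Their median difference was 0.55 (log2). Iigp1, an immunity-related GTPase that loads onto and breaks the vacuoles of intracellular parasites, read 7.47, 8.91 and 6.86 in HOXB4 cells, against 4.37, 4.26 and 4.94 in GFP cells. The GFP values were no higher than the brightest non-specific control on each of these arrays, so the GFP level is only a bound. The fitted difference was 3.23 ± 0.52 (limma adjusted p = 0.00119), with group means of 7.75 ± 1.05 in HOXB4 and 4.52 ± 0.36 in GFP cells (SD, n = 3). With the GFP arrays set to their brightest controls, the HOXB4 mean of Iigp1 was 8.13-fold higher. That ratio of means takes no account of the spread between the HOXB4 arrays. A second probe set of Iigp1 gave 2.46 ± 0.45 (adjusted p = 0.00337 over all named probe sets).

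Gbp2, a guanylate-binding protein that targets microbes and their vacuoles, read 7.01, 7.42 and 6.80 in HOXB4 cells at 20 weeks, against 5.58, 5.59 and 5.83 in GFP cells. It was higher in HOXB4 cells by 1.41 ± 0.23 (2.66-fold, limma adjusted p = 0.00125), with no overlap between the groups. Its second probe set gave 0.84 ± 0.25 (limma adjusted p = 0.0542 over all named probe sets), short of the threshold. Gbp3, of the same family and gene cluster, read 6.36, 6.69 and 6.63 in HOXB4 cells, against 7.96, 7.86 and 7.43 in GFP cells. Here every GFP array lay above every HOXB4 array, and Gbp3 was lower in HOXB4 cells by a log2 difference of -1.19 ± 0.26 (2.28-fold; limma adjusted p = 0.0103). The call of Gbp3 was lost without GFP replicate 1 (adjusted p = 0.0531). Both promoters printed above hold the ISRE core. Of 2 further genes of the family outside the 37, Gbp7 differed by 0.48 ± 0.16 (adjusted p = 0.075) and Gbp4 by -0.03 ± 0.17 (adjusted p = 0.948).

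Igtp, Irgm2 and Irgm1, immunity-related GTPases that act as regulators of the family, were not called at 20 weeks. Igtp read 7.92, 8.42 and 6.98 in HOXB4 cells, against 7.33, 7.07 and 7.34 in GFP cells (0.53 ± 0.28, adjusted p = 0.288). Irgm2 read 7.05, 7.50 and 6.64 in HOXB4 cells, against 6.71, 6.45 and 6.33 in GFP cells (0.57 ± 0.28, adjusted p = 0.255). In both genes HOXB4 replicate 3 lay within or below the range of the GFP arrays while the other HOXB4 arrays lay above it. Irgm1 differed by 0.24 ± 0.22 (adjusted p = 0.568). Without HOXB4 replicate 3, 13 of the 37 genes were called, namely Iigp1, Rtp4, Gbp2, Gbp3, Usp18, Ifit1, Ddx58, Irf1, Ifit3, Parp9, Xaf1, Igtp and Irgm1, and Ifitm3 was not.

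The proteasome subunits and the chemokine were not called at 20 weeks. Psmb8, a subunit of the immunoproteasome, differed by 0.00 ± 0.19 (adjusted p = 0.998, 95% interval -0.40 to 0.40). Psmb9, another such subunit, differed by 0.30 ± 0.22 on its brightest probe set (adjusted p = 0.483) and by 0.54 ± 0.14 on its second (adjusted p = 0.0307 over all named probe sets). Cxcl10, which attracts T cells, was in the range of the non-specific controls in both groups.

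The 12 genes with an ISRE core in the window had a median difference of 0.48 (log2) at 20 weeks, from -1.19 to 1.41, with 2 higher and 1 lower. The 14 genes with a window and no core had a median of 0.31, from -0.72 to 0.78, with 1 higher and 1 lower. The ranges overlapped, and no test was made of the difference. Over all genes limma called 3.77% higher and 5.18% lower at 20 weeks.

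**Figure D3:**
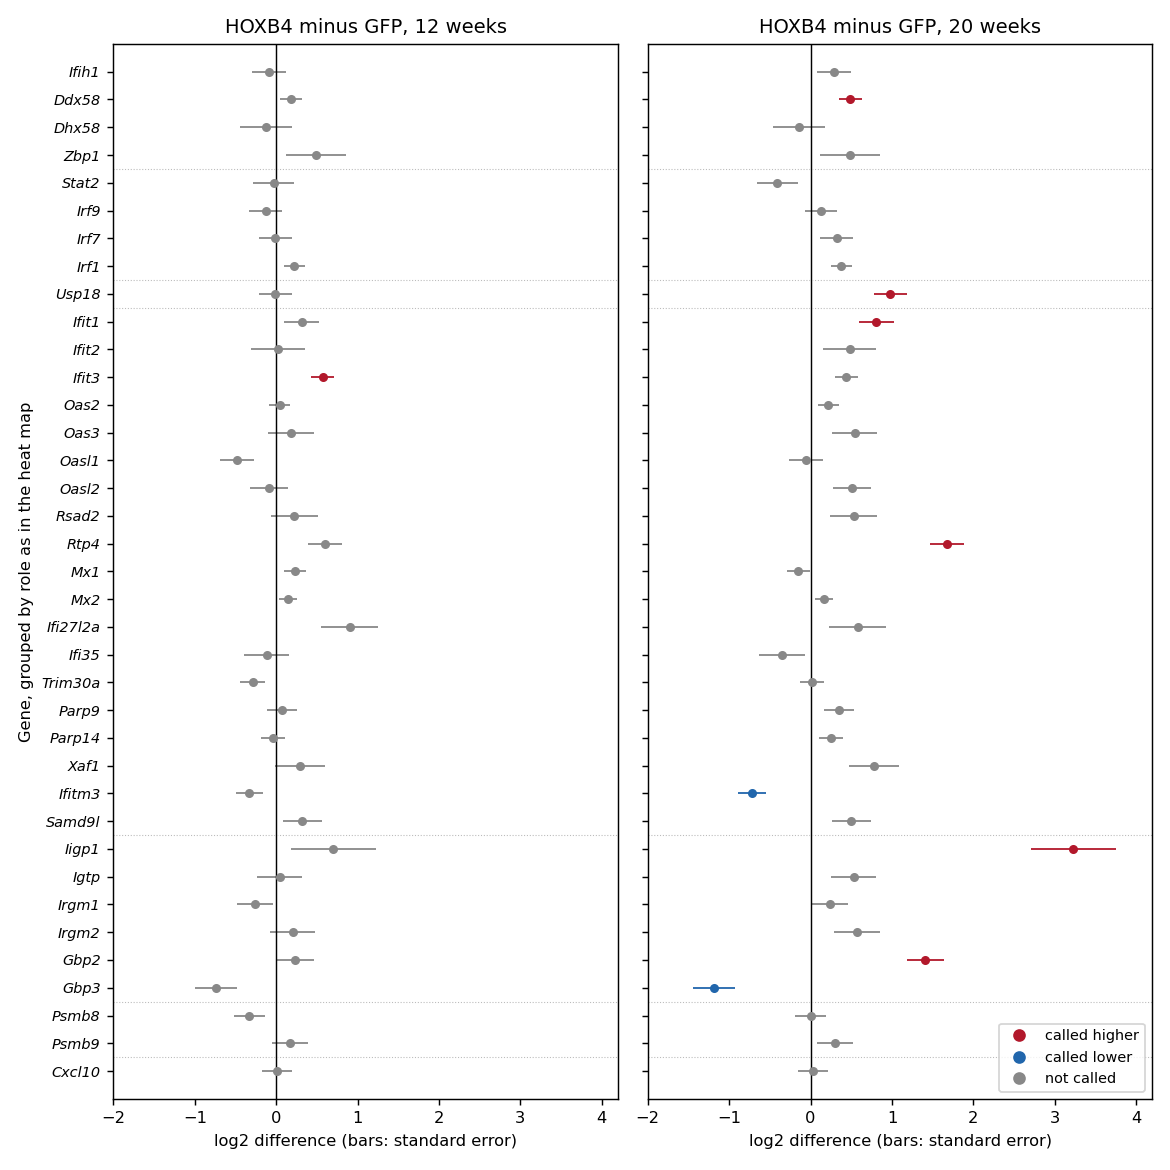
Log2 difference, HOXB4 minus GFP, with the standard error of the model, of the 37 interferon response genes at 12 weeks (left) and 20 weeks (right), in 3 colours for called higher, called lower and not called. At 12 weeks 1 gene is called and at 20 weeks 8 are, with Iigp1 (fitted, against GFP arrays no brighter than the controls) at 3.23 and Gbp3 at -1.19 at the ends.

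At 12 weeks, 1 of the 37 genes was called between the vectors. Ifit3 read 6.73, 6.73 and 6.90 in HOXB4 cells, against 6.06, 6.32 and 6.26 in GFP cells. The groups did not overlap, and Ifit3 was higher in HOXB4 cells by 0.57 ± 0.14 (1.48-fold; limma adjusted p = 0.0324). That is 2.7% of the 37 genes, against 4.02% of all genes (1.82% higher and 2.2% lower). Ifit3 lost its call without any 1 of the 6 arrays of these groups, and its adjusted p reached 0.148 over the alternatives. The median difference was 0.04 (log2), against -0.02 over all genes, and 7 genes were higher and 3 lower without overlap, against 14.4% and 20.5% of all genes.

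The genes called at 20 weeks had smaller differences at 12 weeks. Iigp1 read 7.53, 6.30 and 6.24 in HOXB4 cells, against 6.11, 6.21 and 5.64 in GFP cells (0.70 ± 0.52, adjusted p = 0.505). Rtp4 read 7.70, 7.77 and 7.72 in HOXB4 cells, against 7.24, 7.16 and 6.98 in GFP cells (0.60 ± 0.21, adjusted p = 0.134). Gbp3 read 6.69, 6.41 and 6.58 in HOXB4 cells, against 7.52, 7.30 and 7.06 in GFP cells (-0.74 ± 0.26, adjusted p = 0.137). The arrays of the 2 groups did not overlap for Iigp1, Rtp4 or Gbp3. Gbp2 differed by 0.23 ± 0.23 (adjusted p = 0.639), Usp18 by -0.01 ± 0.20 (adjusted p = 0.985) and Ifitm3 by -0.33 ± 0.17 (adjusted p = 0.308). Ifi27l2a, an interferon-induced gene of uncertain function, had the widest positive difference at 12 weeks (0.90 ± 0.35, adjusted p = 0.164). Irf1 differed by 0.22 ± 0.13 (adjusted p = 0.393), and Irf7, Irf9 and Stat2 by -0.01, -0.13 and -0.03.

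When the HOXB4 effect at 20 weeks was tested against that at 12 weeks, limma called none of the 37 genes, against 0.509% of all genes. At an unadjusted p under 0.05 there were 4, all with the larger difference at 20 weeks: Iigp1 (2.52 ± 0.74, adjusted p = 0.185), Gbp2 (1.18 ± 0.33, adjusted p = 0.156), Rtp4 (1.08 ± 0.30, adjusted p = 0.162) and Usp18 (0.99 ± 0.29, adjusted p = 0.180). The values of Iigp1 and Usp18 are fitted on dim GFP 20-week arrays, and with those set to their brightest controls they were 2.32 and 0.81. These 4 are 10.8% of the 37, against 9.8% of all genes at that level. The median over the 37 genes was 0.31 (log2), against 0.02 over all genes. Without HOXB4 20-week replicate 3, Rtp4 passed this test, with 82 of all genes called in that fit.

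GFP cells at 20 weeks had the lowest values of the series for several of these genes. All 3 GFP 20-week arrays lay below all 12 other arrays for Rtp4, Iigp1 and Gbp2, which is 3 of 37, against 1.91% of all genes. Between GFP cells at 20 and 12 weeks, 1 of 37 genes was called (2.7%, against 2.37% of all genes). Rtp4 read 5.89, 6.17 and 6.52 in GFP cells at 20 weeks, against 7.24, 7.16 and 6.98 at 12 weeks. It was lower at 20 weeks by a log2 difference of -0.94 ± 0.21 (limma adjusted p = 0.0329), and its call was lost without any 1 of 8 arrays, 3 of them GFP 12-week, 2 GFP 20-week and 3 HOXB4 12-week arrays, with an adjusted p of up to 0.172 over the alternatives. Its second probe set gave -0.16 ± 0.24 (adjusted p = 0.885 over all named probe sets). This comparison shares the GFP 20-week arrays with HOXB4 against GFP at 20 weeks.

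The other genes with an unadjusted p under 0.05 between GFP cells at 20 and 12 weeks were also lower, 9 in all with Rtp4 and 0 higher. They are 24.3% of the 37, against 13.1% of all genes at that level. Iigp1 differed by a fitted -1.47 ± 0.52 (adjusted p = 0.203), Dhx58 by -0.82 ± 0.32 (adjusted p = 0.259), Usp18 by -0.72 ± 0.20 (adjusted p = 0.085) and Gbp2 by -0.68 ± 0.23 (adjusted p = 0.17). The second probe set of Gbp2 gave -0.12 ± 0.25, and the other probe sets of Dhx58 gave -0.21 ± 0.23 and -0.29 ± 0.20. Oasl2, Rsad2, Ifit1 and Psmb8 differed by -0.68, -0.63, -0.50 and -0.42. With the GFP 20-week arrays that were no brighter than their controls set to those controls, the differences were -1.26 for Iigp1, -0.54 for Usp18 and -0.24 for Ifit1. The median was -0.21 (log2), against -0.04 over all genes. Of the 37 differences 12 were positive and 25 negative, against 7187 and 9910 of all 17097 genes. The arrays did not overlap for 1 gene that was higher and 11 that were lower at 20 weeks, against 8.04% and 14.1% of all genes. Psmb8 read 10.62, 10.40 and 10.43 in GFP cells at 12 weeks, the only gene of the 37 for which that group lay above all other arrays (2.23% of all genes).

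Within HOXB4 cells, limma called none of the 37 genes between 12 and 6 weeks, against 1.57% of all genes, and none between 20 and 12 weeks, against 0.252%. At an unadjusted p under 0.05 there were 10 higher and 2 lower at 12 against 6 weeks, which is 32.4% of the 37, against 16.7% of all genes. Psmb9 differed by 0.78 ± 0.22 (adjusted p = 0.0889), Xaf1 by 0.94 ± 0.31 (adjusted p = 0.128), Dhx58 by 0.96 ± 0.32 (adjusted p = 0.136), Ifi27l2a by 1.02 ± 0.35 (adjusted p = 0.141) and Ifit1 by 0.69 ± 0.22 (adjusted p = 0.119). The other probe sets of Dhx58 gave 0.48 ± 0.23 and 0.16 ± 0.20. The median was 0.27 (log2), against 0.01 over all genes. The arrays did not overlap for 13 genes that were higher at 12 weeks and 2 that were lower, against 12.8% and 8.36% of all genes. Without HOXB4 6-week replicate 2, which was highest of its group for 22 of the 37, the count called was 5, namely Dhx58, Ifi27l2a, Xaf1, Psmb8 and Psmb9. Between these times the Gapdh difference between the 3' and 5' ends was 0.93, 1.02 and 0.97 at 12 weeks, against 3.76, 1.68 and 1.71 at 6 weeks. The mean of 5 neutrophil markers was 9.49 to 10.19 at 12 weeks, against 5.51 to 8.81 at 6 weeks, and 1 of the 5, Camp, was called higher (all 5 at an unadjusted p under 0.05). The part of either in the differences from 6 weeks was not tested. At 20 against 12 weeks the unadjusted count was 2 higher and 2 lower (10.8% of the 37, against 11.2% of all genes), and the median was 0.05 (log2), against -0.01.

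At 20 against 6 weeks, 3 of the 37 genes were higher in HOXB4 cells and none lower (8.11%, against 4.66% of all genes, 3.3% higher and 1.36% lower). Trim30a, a tripartite motif protein that restrains Toll-like receptor signalling in mice, read 7.30, 7.74 and 7.48 at 6 weeks, 7.80, 7.62 and 7.75 at 12 weeks and 8.24, 8.52 and 8.09 at 20 weeks. The 3 arrays at 20 weeks were above all others of the HOXB4 series, and the difference from 6 weeks was 0.77 ± 0.15 (limma adjusted p = 0.0112). Its second probe set gave 0.10 ± 0.19 (adjusted p = 0.818 over all named probe sets), so the change rests on 1 of 2 probe sets, and the call was lost with the mean of both (adjusted p of up to 0.193 over the alternatives).

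Usp18 read 4.66, 5.11 and 4.44 at 6 weeks, 5.25, 5.37 and 5.24 at 12 weeks and 5.72, 5.72 and 5.22 at 20 weeks in HOXB4 cells. The 6-week arrays were below all later ones, and Usp18 was higher at 20 than at 6 weeks by 0.82 ± 0.20 (limma adjusted p = 0.0356). Ddx58 read 6.35, 6.19 and 6.26 at 6 weeks, 6.72, 6.63 and 6.72 at 12 weeks and 7.03, 6.79 and 6.60 at 20 weeks. Its 6-week arrays were also below all later ones, and it was higher at 20 than at 6 weeks by 0.54 ± 0.14 (limma adjusted p = 0.045), with -0.03 ± 0.14 and 0.04 ± 0.17 on its other probe sets. Over the 24 alternatives Usp18 lost this call in 10, with an adjusted p of up to 0.242, and Ddx58 in 16, with up to 0.312. The median over the 37 genes was 0.24 (log2), against -0.00 over all genes.

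Replicate arrays of HOXB4 cells spread widely in the GTPases. The mean deviation of the 6 GTPases from their 15-array means was 0.02, 0.89 and 0.03 (log2) on the HOXB4 arrays at 6 weeks, 0.27, -0.27 and -0.11 at 12 weeks and 0.25, 0.82 and -0.20 at 20 weeks. It was -0.45, -0.60 and -0.47 in GFP cells at 20 weeks and 0.11, 0.03 and -0.33 at 12 weeks. The 2 high arrays were replicate 2 of the 6-week and of the 20-week HOXB4 group, and 1 or the other held the highest value of the series for 5 of the 6 GTPases. On these arrays the 19 effectors deviated by 0.05 and 0.26. Gbp3, the exception, was highest on GFP 20-week replicate 1 (7.96). Without HOXB4 20-week replicate 2, Iigp1 differed between the vectors at 20 weeks by a fitted 2.64 (adjusted p = 0.00456) and Gbp2 by 1.24 (adjusted p = 0.00693).

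**Figure D4:**
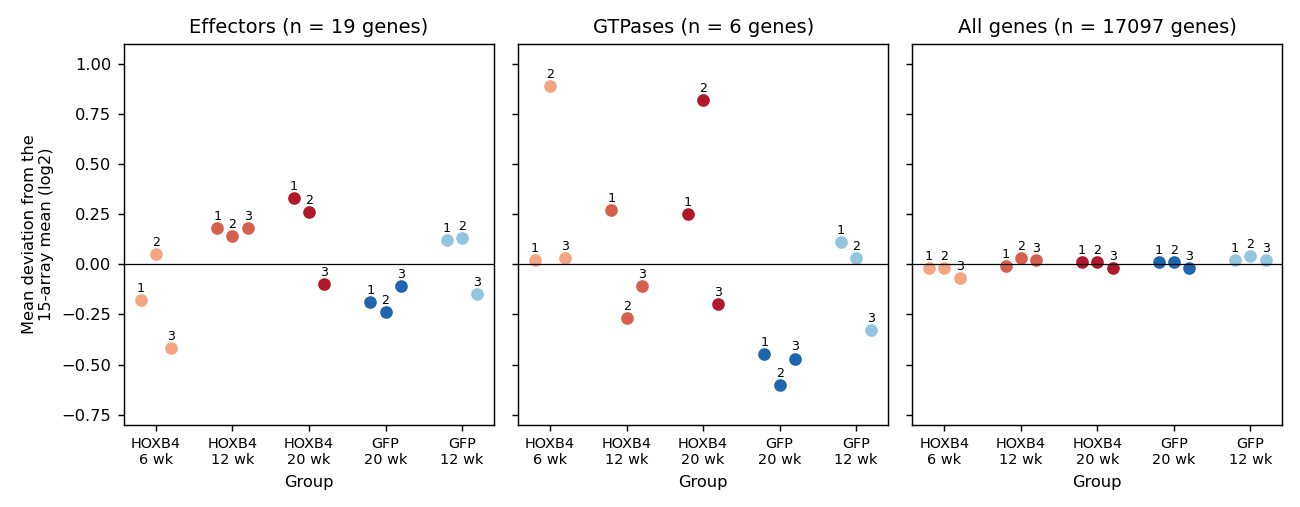
Mean deviation from the 15-array mean (log2) over the 19 effectors, the 6 GTPases and all 17097 genes, with 1 point per array, numbered by replicate. The GTPases stand at 0.89 and 0.82 on replicate 2 of the HOXB4 6-week and 20-week groups and at -0.45 to -0.60 in GFP cells at 20 weeks, and all genes stay near 0.

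Genes upstream of the response were taken from a wider list of receptors, kinases, regulators and interferons, of which 30 were measured. At 20 weeks none was higher and 4 were lower in HOXB4 cells (13.3%, against 8.95% of all genes), with a median of -0.14 (log2). At an unadjusted p under 0.05 there were 2 higher and 6 lower, or 26.7%, against 22.1% of all genes, which is near the background. Ifngr1, the ligand-binding chain of the interferon-gamma receptor, read 8.01, 7.88 and 7.51 in HOXB4 cells, against 8.64, 8.72 and 8.37 in GFP cells (-0.78 ± 0.15, limma adjusted p = 0.00397). Irf8, a factor of the monocyte lineage that also takes part in interferon-gamma responses, read 8.42, 8.20 and 7.93 in HOXB4 cells, against 9.72, 9.64 and 10.28 in GFP cells (-1.70 ± 0.25, limma adjusted p = 0.000622). Neither gene overlapped between the groups. Ikbke, a kinase that phosphorylates interferon regulatory factors, was lower by a log2 difference of -0.91 ± 0.19 (adjusted p = 0.00633), and Ptpn6, the phosphatase SHP-1, by -0.55 ± 0.15 (adjusted p = 0.0349). Over the 24 alternatives Ifngr1 and Irf8 kept these calls in all, Ikbke in 23 and Ptpn6 in 16, with an adjusted p of up to 0.164. Ifnar1, a chain of the type I receptor, differed by 0.06 ± 0.14 (adjusted p = 0.846). Ifng, the gene of interferon-gamma, read 3.09 to 3.33 and was below the brightest non-specific control of its array on all 15 arrays. Ifnb1, the gene of interferon-beta, read 3.81 to 4.48 and exceeded that control on 5 of the 15, among them the 3 HOXB4 6-week arrays. On those 3 arrays the brightest control was dimmer than on every other array. The Ifnb1 values of the HOXB4 6-week and 20-week arrays overlapped, so the count alone does not show a higher Ifnb1 level at 6 weeks.

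At 12 weeks 1 of the 30 upstream genes was called (3.33%, against 4.02% of all genes), Irf8, lower in HOXB4 cells by a log2 difference of -0.99 ± 0.25 (limma adjusted p = 0.0417, up to 0.174 over the alternatives, with the call lost in 8 of 24). In HOXB4 cells at 20 against 6 weeks 1 was called (3.33%, against 4.66% of all genes), Irf2, an antagonist of IRF1, which was higher by 0.71 ± 0.16 (limma adjusted p = 0.0266). In the other 4 comparisons limma called none of the 30, with 1 to 7 at an unadjusted p under 0.05 (3.33% to 23.3%, against 9.8% to 16.7% of all genes).

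A further list of 50 interferon-stimulated genes outside the 42 had 38 measured. At 20 weeks 4 were higher and 2 lower in HOXB4 cells (15.8%, against 8.95% of all genes), with a median of 0.04 (log2), against 0.02 over all genes. Tgtp1, an immunity-related GTPase like Iigp1, read 9.24, 10.10 and 8.79 in HOXB4 cells, against 7.86, 7.97 and 8.24 in GFP cells (1.35 ± 0.30, limma adjusted p = 0.0108). The groups did not overlap, and replicate 2 was again the highest HOXB4 array. Nlrc5, the activator of class I antigen presentation genes, was higher by 0.61 ± 0.14 (adjusted p = 0.011), and H2-K1, a class I molecule, by 0.49 ± 0.10 (adjusted p = 0.00659). Slfn8 was higher by 0.61 ± 0.15 (adjusted p = 0.0156), whereas Slfn2, of the same Schlafen family and known to hold immune cells in quiescence, was lower by a log2 difference of -1.59 ± 0.16 (limma adjusted p = 2.59e-05). Slfn2 kept its call in all 24 alternatives, H2-K1 in 23, Tgtp1 and Nlrc5 in 22 each and Slfn8 in 21.

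At 12 weeks 1 of these 38 genes was called (2.63%, against 4.02% of all genes), Ifitm1, lower in HOXB4 cells by a log2 difference of -1.70 ± 0.39 (limma adjusted p = 0.0246, up to 0.115 over the alternatives, with the call lost in 5 of 24). In the test of the effect at 20 weeks against that at 12 weeks 1 was called (2.63%, against 0.509% of all genes), Slfn2, with the lower value at 20 weeks. Between GFP cells at 20 and 12 weeks 1 was called, again Slfn2, higher at 20 weeks by 1.52 ± 0.16 (limma adjusted p = 0.000148). That is 2.63% of the 38, against 2.37% of all genes, which is near the background. In HOXB4 cells 2 were higher at 12 than at 6 weeks (5.26%, against 1.57% of all genes), Slfn5 (0.86 ± 0.14, adjusted p = 0.0156) and the nuclear body gene Sp100 (0.63 ± 0.14, adjusted p = 0.0399). At 20 against 6 weeks 4 were higher, Slfn5, Sp100, Slfn8 and Uba7, the activating enzyme of ISG15, and Slfn1 was lower (13.2% in all, against 4.66% of all genes). The 20-week values of Slfn1 (3.17, 2.99 and 3.44) were below the brightest non-specific controls of those arrays (4.35, 4.43 and 4.25). Slfn8 lost this call in 7 of 24 alternatives, with a limma adjusted p of up to 0.233. Between 20 and 12 weeks limma called none of the 38, with 2 at an unadjusted p under 0.05 (5.26%, against 11.2% of all genes).

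Several markers of the sorted cells and of other cells moved with the groups at 20 weeks. Over all genes, limma called 8.95% between the vectors at that time, with 22.1% at an unadjusted p under 0.05. The mean signal of 8 LSK markers was 6.93 to 7.66 (log2) on HOXB4 arrays, against 6.61 to 6.83 on GFP arrays. Of the 8, Slamf1 and Flt3 were called higher, with 5 higher and 1 lower at an unadjusted p under 0.05. In GFP cells it was 6.61 to 6.83 at 20 weeks, against 7.36 to 7.54 at 12 weeks. All 8 differences were negative, against 9910 of all 17097 genes. Of the 8 markers, 2 were called, Procr and Cd34 (25%, against 2.37% of all genes). The GFP 20-week arrays were thus lowest of the series in this mean, as they were for Rtp4, Iigp1 and Gbp2. They were also lowest in the mean of 4 megakaryocyte markers, and highest in the means of 5 neutrophil and 6 monocyte or macrophage markers. Between GFP cells at 20 and 12 weeks, 4 of these neutrophil and 4 of these monocyte or macrophage markers were called higher. Of the megakaryocyte markers, 2 were called lower. The mean signal of 5 neutrophil markers was 7.70 to 9.25 (log2) on HOXB4 arrays, against 11.07 to 11.11 on GFP arrays, and all 5 were lower. That of 6 monocyte or macrophage markers was 5.74 to 6.04 on HOXB4 arrays, against 7.12 to 7.35 on GFP arrays, and 3 of the 6 were lower. That of 4 megakaryocyte markers was 7.07 to 7.94 on HOXB4 arrays, against 5.69 to 6.22 on GFP arrays, and 3 of the 4 were higher. That of 5 B cell markers was 7.89 to 8.91 on HOXB4 arrays, against 6.06 to 8.13 on GFP arrays, with none called and 3 higher and 1 lower at an unadjusted p under 0.05. At 12 weeks the 5 neutrophil markers averaged 9.49 to 10.19 on HOXB4 arrays, against 7.53 to 8.60 on GFP arrays, and the B cell markers 7.70 to 8.23, against 5.25 to 5.64. The mean of 6 T cell markers was 4.72 to 5.29 over all 15 arrays, near the brightest non-specific control. That of 5 NK cell markers at 20 weeks reached 7.27 on HOXB4 arrays, against 6.79 on GFP arrays, and the groups overlapped, with none called in limma and 1 at an unadjusted p under 0.05. The part of any of these markers' cells in the differences of the interferon response genes was not tested.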

How the data were processed

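Gene expression was measured on 15 arrays of sorted LSK cells, 3 in each of 5 groups read from the sample titles, from 20 ng of RNA per the labels' protocols. The deposited values are the authors' log2 signals of 45141 probe sets. The submitters' processing notes name RMA and Partek 6.5, and further filters are not given in the sources used here.

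Platform symbols were updated to GRCm38.p6. A single symbol was present for 28898 probe sets, several for 551, which were left unnamed, and none listed for 15692. For each of 17097 genes the brightest probe set was tested. Group means were fitted to all 15 arrays together with limma 3.58.1 under R 4.3.3 (lmFit, eBayes), which left 10 residual degrees of freedom and added 4.55 from the prior. P-values were two-sided and adjusted by Benjamini and Hochberg over all genes in each of 7 comparisons, with the threshold for a call at 0.05. With 3 arrays against 3, an exact permutation test of 1 gene gives no p under 0.1, so calls rest on the model. They measure the spread between arrays, possibly a technical one, and the number of arrays limits the precision. The model was also run on simulated data with independent noise on each array and the same spread in every group. Those data held no shift shared by many genes of an array, so the run does not cover such shifts.

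Members and lists were chosen with earlier results of these data known. Every measured member was described by role, with array values for called members (up to 8 for each HOXB4 against GFP comparison and 4 for each other), and Irf1, Irf7, Irf9, Stat2 and Usp18 were always given. Of the 2 wider lists, counts and up to 6 called genes were named. The 24 alternatives were fitting only the groups compared, leaving out the dimmest 1 in 3 genes, averaging the probe sets of each gene, testing all named probe sets, quantile normalisation, centring, a variance trend with robust moderation, the replicate number as a block, leaving out each array and, chosen after seeing the data, leaving out both arrays with the brightest Dap control.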

Additional observations from a re-analysis of the deposited data

Results flagged for a closer look

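Slfn2, one of the interferon-stimulated genes outside the 37, was singled out because the effect of HOXB4 differed between the times by a direct test of that difference. The effect at 20 weeks minus that at 12 weeks was -1.64 ± 0.22 (log2; limma adjusted p = 0.00252). Slfn2 read 5.08, 5.11 and 4.83 in HOXB4 cells at 20 weeks, against 6.36, 6.85 and 6.59 in GFP cells. At 12 weeks it read 5.29, 5.12 and 4.96 in HOXB4 cells, against 5.17, 5.19 and 4.87 in GFP cells (0.05 ± 0.16, adjusted p = 0.907). The GFP 20-week arrays were above the 12 others, and the test passed in all 24 alternatives (-1.76 to -1.51).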

How the results depend on the processing

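Of 37 interferon response genes, the number called between HOXB4 and GFP cells at 20 weeks was 8, became 5 in a fit on only the groups compared, and was 4 to 13 when 1 array was left out. It was 4 without GFP 20-week replicate 1, 5 without GFP replicate 2 or HOXB4 replicate 1, and 13 without HOXB4 replicate 3. Over all genes limma called 887, 798, 1560 and 1178 in those fits, in that order, and 798 to 1829 with any 1 array left out. Iigp1 (fitted, 2.64 to 3.87), Rtp4 (1.28 to 2.11), Gbp2 (1.12 to 1.63) and Usp18 (0.87 to 1.28) kept their calls there in all 24 alternatives, and Gbp3 in 23.

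At 12 weeks the count of 1 became 2 with probe sets averaged by gene, 5 with only the groups compared, 2 without both arrays with the brightest Dap control, and 0 to 2 with 1 array left out. For the effect at 20 weeks against that at 12 weeks, 0 became 2 without the Dap arrays (Usp18 and Rtp4) and 0 to 1 with 1 array left out. For GFP cells at 20 against 12 weeks, 1 became 4 with only the groups compared, 2 without the Dap arrays, and 0 to 1 with 1 array left out. For HOXB4 cells, 0 became 0 to 5 at 12 against 6 weeks with 1 array left out, and 5 without 6-week replicate 2. At 20 against 6 weeks 3 became 1 with probe sets averaged by gene, 0 with only the groups compared, 6 without the Dap arrays, and 1 to 7 with 1 array left out (7 without HOXB4 20-week replicate 3, 6 without HOXB4 6-week replicate 2). At 20 against 12 weeks limma called 0 in all alternatives. With 1 array left out, limma called 214 to 957 of all genes at 12 weeks and 38 to 222 for the difference. It called 192 to 511 for GFP cells and 0 to 923 for HOXB4 cells at 12 against 6 weeks. For HOXB4 cells it called 1 to 101 at 20 against 12 weeks and 397 to 1116 at 20 against 6 weeks. Without the Dap arrays it called 929 at 12 weeks, 222 for the difference, 573 for GFP cells and 763 at 20 against 6 weeks. The cause of these moves was not tested.

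Replicate numbers are shared between groups, but same-numbered arrays did not deviate together over all genes (correlations of -0.17 to 0.12). Both arrays with the brightest Dap control (12.70 and 12.92) were replicate 3 of the 20-week groups. The correlations cannot tell whether the numbers stand for a shared design or handling, so the block is an alternative and not a known pairing. With the replicate block the count was 8 at 20 weeks, 0 at 12 weeks, 0 for the difference, 3 for GFP cells at 20 against 12 weeks, and 1, 0 and 2 for HOXB4 cells at 12 against 6, 20 against 12 and 20 against 6 weeks. Over all genes the counts in that order were 1434, 586, 76, 352, 170, 14 and 643.

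Over all genes, a fit on only the groups compared called 715 at 20 weeks, against 1530, and 2593 at 12 weeks, against 688. It called 183 for the difference, against 87, 618 for GFP cells over time, against 406, and 20, 18 and 1 for HOXB4 cells at 12 against 6, 20 against 12 and 20 against 6 weeks, against 268, 43 and 796. The 104 single-gene results were repeated 2488 times, and none that was called at first changed sign. A call was lost in 109 repeats, which only results called at first could do, and gained in 25. Small moves aside, 4 repeats of uncalled results did not keep their sign. Signals near the controls limit Oasl1, Mx1, Mx2 and Cxcl10 and, in GFP cells at 20 weeks, Iigp1, Usp18 and Ifit1.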
